A study of Mus musculus with 4 samples.

Results

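The insulin-like growth factor system of the bone marrow stroma was examined through 10 genes: the ligands Igf1 and Igf2, the binding proteins Igfbp2 to Igfbp7, and the proteases Htra1 and Pappa. They were chosen by symbol, as the probe sets annotated to exactly 1 of these genes, and all 10 were measured, by 26 of the 34945 probe sets with a single gene, out of 18193 genes in all. The RNA came from the marrow of adult NOD/SCID mice (NOD.CB17-Prkdc scid/J), which the submitters describe as recipients without saying in the labels what they had received. The scid mutation, which stops the maturation of B and T cells, was shared by both groups. Cells that carried CD51 (integrin alpha v) and lacked CD45, CD31, Sca1 and the lineage antigens, the submitters' osteoblast sort, were taken from the trabecular bone area or from the long bone area, with 2 arrays for each area.

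Both ligands act through the receptor Igf1r and drive growth and survival of osteoblasts and chondrocytes. Binding proteins hold them in the extracellular space, lengthen their life and can either block or favour access to the receptor. Proteases such as Pappa, which cuts Igfbp4, and Htra1, a secreted serine protease that can cut Igfbp5, free the ligand again. In bone, Igf1 and Igf2 are stored in the matrix and released when it is remodelled.

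Each deposited value is a log2 expression value relative to the median of the 4 arrays for that probe set, so it carries a difference between arrays and no level. One consequence is that the middle 2 arrays of a probe set stand at equal distances above and below 0. A gene was given the mean of its probe sets. Long bone array 2 stood apart, with 2493 probe sets 2-fold or more away from the median of the arrays where the other 3 had 383 to 848. For Gapdh, a control read at both ends of its transcript, the 5' end minus the 3' end gave -1.16 there and -0.09 to 0.31 elsewhere. The same reading for Actb did not set that array apart, at -0.04. It was 0.44 on trabecular array 1, -0.07 on trabecular array 2 and 0.07 on long bone array 1. The spiked hybridisation controls were lower on both trabecular arrays in 18 of 18 probe sets, by a median of -0.49. The labels call the arrays biological replicates and do not tie them to mice, so the p-values measure only the spread between these samples. With 2 arrays in each area the smallest two-sided p that an exact permutation test allows is 0.333. With bulk RNA, fewer cells of a type and less RNA per cell cannot be told apart.

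All 10 genes had a lower mean in the trabecular area, but they did so in 3 different ways. Htra1 separated the areas on all 4 arrays and was 6.58-fold lower in the trabecular area. Igf1, Igfbp3, Igfbp5, Igfbp7 and Pappa had differences of -0.52 to -1.41 on the log2 scale, which were -0.01 to -0.45 without long bone array 2. Igf2 and Igfbp6 differed by -0.40 and -0.36, and Igfbp2 and Igfbp4 by -0.02 each. None was called by limma after Benjamini-Hochberg adjustment over all genes, nor was any other gene (0% of genes and 0% of probe sets called). The lowest adjusted p of a member gene was 0.234, for Htra1.

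The median log2 difference over the 10 genes was -0.67, against 0.03 over all genes. The areas did not overlap for 5 members, Htra1, Igfbp5, Igfbp7, Igf2 and Igfbp6, all lower in the trabecular area, where 21.4% of all genes had no overlap in that direction. Htra1 and Igfbp5 were also at least 2-fold apart, a condition that 1.17% of all genes met in that direction and 1.46% in the other. At an unadjusted p under 0.05 stood 1 member, Htra1, where 4.62% of all genes were lower at that threshold. Among single probe sets, 10 of the 26 had no overlap and 5 of these were at least 2-fold lower, against 26.2% and 2.71% of all probe sets. The 5 belonged to Htra1 (both of its probe sets), Igfbp5, Igfbp7 and Igf1.

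**Figure D1:**
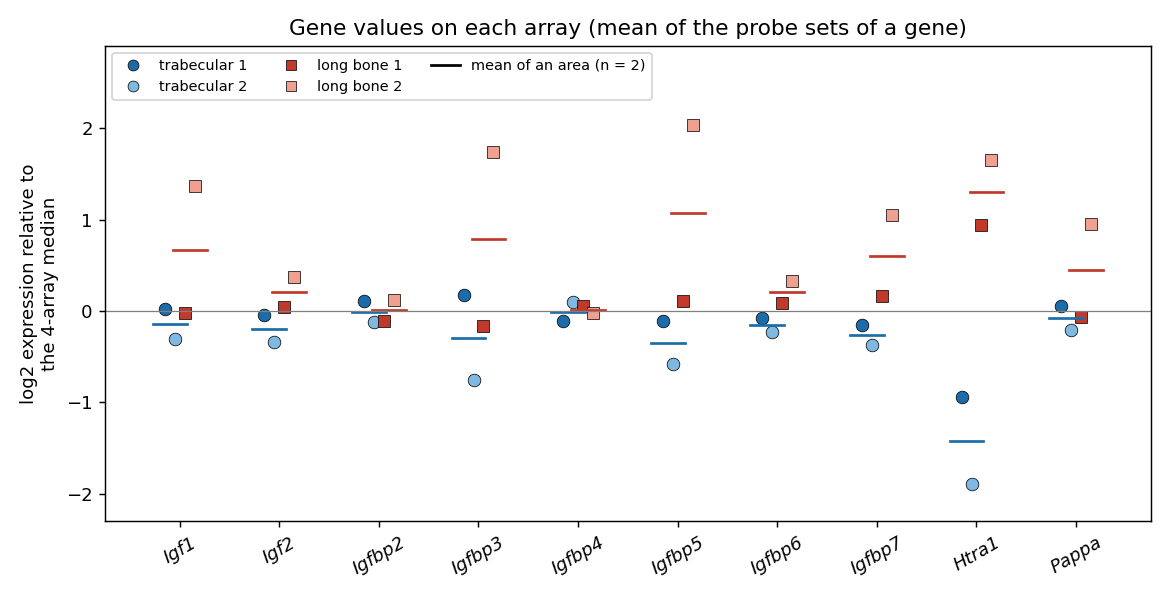
Log2 expression relative to the 4-array median (vertical axis) of each of the 10 genes (horizontal axis) on the 4 arrays, as points, with the mean of the 2 arrays of each area as a bar. Htra1 separates the areas on every array, while long bone array 2 stands alone above the rest for Igf1, Igfbp3, Igfbp5, Igfbp7 and Pappa, at values from 0.96 to 2.03.

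Long bone array 2 held the highest value of 9 of the 10 genes and trabecular array 2 the lowest of 9, with Igfbp4 the exception in both cases. On long bone array 2 the genes Igf1, Igfbp3 and Igfbp5 were each at least 2-fold above every other array. Over all genes this held for 1.11%, and no member stood out in that way on any other array. This count was chosen after the values had been seen. Without long bone array 2 the median over the 10 genes was -0.18, and without long bone array 1 it was -1.18. The latter fit has only the 2 trabecular arrays to measure spread and assumes that the lone long bone array varies alike. In it 5 members were called, Igf1, Igfbp5, Igfbp7, Htra1 and Pappa, at adjusted p values of 0.0358 to 0.0471, together with 1603 genes in all.

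Igf1, the main growth factor of the system, had gene values of 0.02 and -0.30 on the first and second trabecular array, against -0.02 and 1.37 on the first and second long bone array, the order kept for all genes. Only long bone array 2 was high, and the areas overlapped because long bone array 1 lay just under trabecular array 1. The difference was -0.81 (SE 0.49, 95% interval -2.11 to 0.49, limma adjusted p = 0.464), and it was -0.12 without long bone array 2. Igf1 was read by 4 probe sets that differed in how far they followed that array: the value there was 2.33 for 1434413_at, 1.51 for 1437401_at, 1.13 for 1419519_at and 0.50 for 1452014_a_at.

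Igf2, the second ligand and an imprinted gene of fetal growth, showed a smaller and more even pattern. Its values were -0.04 and -0.34 (trabecular) against 0.04 and 0.37 (long bone), with no overlap but little distance between the first arrays of each area. The difference was -0.40 (95% interval -0.90 to 0.10, adjusted p = 0.382) and lay between -0.56 and -0.23 with any 1 array left out. It was smaller than the -0.49 of the hybridisation controls, whose part in the result was not tested. Only 1 of its 2 probe sets kept the areas apart. That was 1448152_at, with a difference of -0.42 (-0.36 without long bone array 2). The other, 1415931_at, overlapped, with a difference of -0.37 (-0.11 without that array).

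Igfbp5, the most abundant binding protein of bone matrix, had the second largest difference of the 10 genes. It stood at -0.11 and -0.59 in trabecular against 0.11 and 2.03 in long bone samples, and the areas did not overlap. The mean was 2.67-fold lower in the trabecular area (log2 difference -1.41, 95% interval -3.20 to 0.37, adjusted p = 0.383), and 1.93 log2 units separated long bone array 2 from the next array. Without that array the difference was -0.45, and without long bone array 1 it was -2.38. Its 2 probe sets shared the order of the arrays but not the size: 1452114_s_at reached 3.41 on long bone array 2 and 1422313_a_at 0.65, with differences of -2.34 and -0.49.

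Igfbp3, the main carrier of the ligands in blood, followed the same array. Its values were 0.17 and -0.76 (trabecular) against -0.17 and 1.74 (long bone), so long bone array 1 lay below trabecular array 1 and the areas overlapped. The difference was -1.08 (95% interval -2.98 to 0.83, adjusted p = 0.501), and -0.12 without long bone array 2. Both probe sets overlapped, with differences of -1.34 for 1423062_at and -0.82 for 1458268_s_at.

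Igfbp7, which binds insulin-like growth factors weakly and is also known from vessel walls, was lower on both trabecular arrays, at -0.16 and -0.37, than on the long bone arrays, at 0.16 and 1.05. The difference was -0.87 (95% interval -1.74 to 0.00, adjusted p = 0.323), and -0.42 without long bone array 2. None of its 3 probe sets overlapped. They differed by -1.59 for 1423584_at, the brighter one, by -0.66 for 1423585_at and by -0.36 for 1437804_at.

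Igfbp6, which prefers Igf2 over Igf1, had values of -0.08 and -0.23 (trabecular) against 0.08 and 0.33 (long bone). The areas did not overlap, and the difference was -0.36 (95% interval -0.76 to 0.04, adjusted p = 0.350). With 1 array left out it lay between -0.48 and -0.24, again inside the shift of the hybridisation controls.

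Igfbp4, an inhibitor of Igf1 action and the substrate of Pappa, was the member with the most probe sets and the flattest. Its values were -0.11 and 0.09 (trabecular) against 0.06 and -0.03 (long bone). The areas overlapped, and the difference was -0.02 (95% interval -0.39 to 0.34, adjusted p = 0.950). Its 6 probe sets had differences between -0.07 and just under 0, and 5 of them belonged to the bright class described below. Igfbp2, the other flat member, was read by 1 probe set with values of 0.11 and -0.12 against -0.11 and 0.12, a difference of -0.02 (95% interval -0.44 to 0.41). The sign of either gene turned when single arrays were left out.

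Htra1 was the member with the largest difference between the areas. It stood at -0.95 and -1.89 in trabecular against 0.95 and 1.65 in long bone samples. Both long bone arrays were high and both trabecular arrays low. The means were -1.42 ± 0.67 (trabecular, SD, n = 2) and 1.30 ± 0.50 (long bone, SD, n = 2), a log2 difference of -2.72 (SE 0.41, 95% interval -3.81 to -1.63, unadjusted p = 0.00176, limma adjusted p = 0.234). It lay between -3.19 and -2.25 with any 1 array left out. Its probe sets went the same way, 1416749_at with a difference of -3.05 and 1438251_x_at, whose suffix marks probes that may read other transcripts, with -2.39.

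Pappa, the zinc protease that frees Igf1 from Igfbp4, had values of 0.05 and -0.21 (trabecular) against -0.07 and 0.96 (long bone). The areas overlapped, and the difference of -0.52 (95% interval -1.51 to 0.46, adjusted p = 0.525) was -0.01 without long bone array 2. Its 3 probe sets did not agree on that array, at 2.01 for 1432591_at, 0.85 for 1427633_a_at and 0.01 for 1432592_at.

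**Figure D2:**
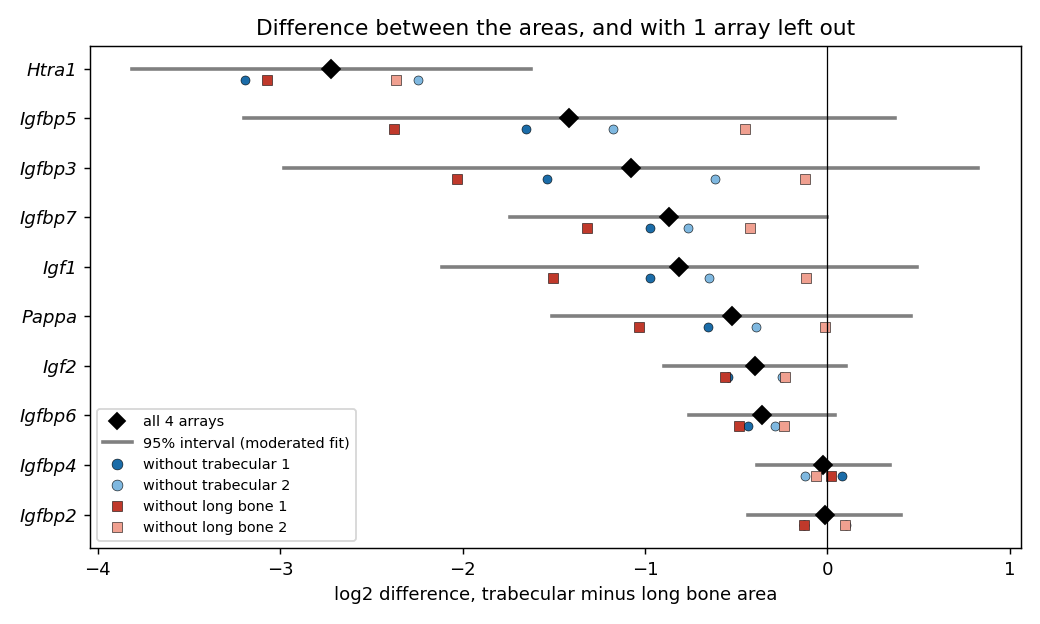
Log2 difference, trabecular minus long bone area (horizontal axis), for each gene, as a diamond with its 95% interval from the moderated fit, and the same difference with 1 array left out, as small symbols. Htra1 stays between -3.19 and -2.25, whereas Igf1, Igfbp3 and Pappa move to between -0.12 and -0.01 without long bone array 2.

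The spacing of the deposited numbers gave a coarse reading of level, since numbers of 32 bits are spaced more widely when they are larger. For 9 of the 26 probe sets the spacing was that of values of 8 and above on all 4 arrays, and for the other 17 that of values that reach down to between 4 and 8. Among all probe sets tested, 31.1% had the wider spacing. The 9 bright ones were 5 of Igfbp4 and 1 each of Igf1, Igfbp5, Igfbp7 and Htra1. The bright probe set had the largest difference of its gene for Htra1 and Igfbp7. For Igfbp5 the bright one differed by -0.49 and the other by -2.34. For Igf1 the bright one, at -1.16, lay between the others, at -0.21 to -1.22. A wide range over the arrays can itself take a probe set out of the bright class. Brightness depends on the affinity of the probes as well as on the transcript, so the reading ranks no gene against another.

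**Figure D3:**
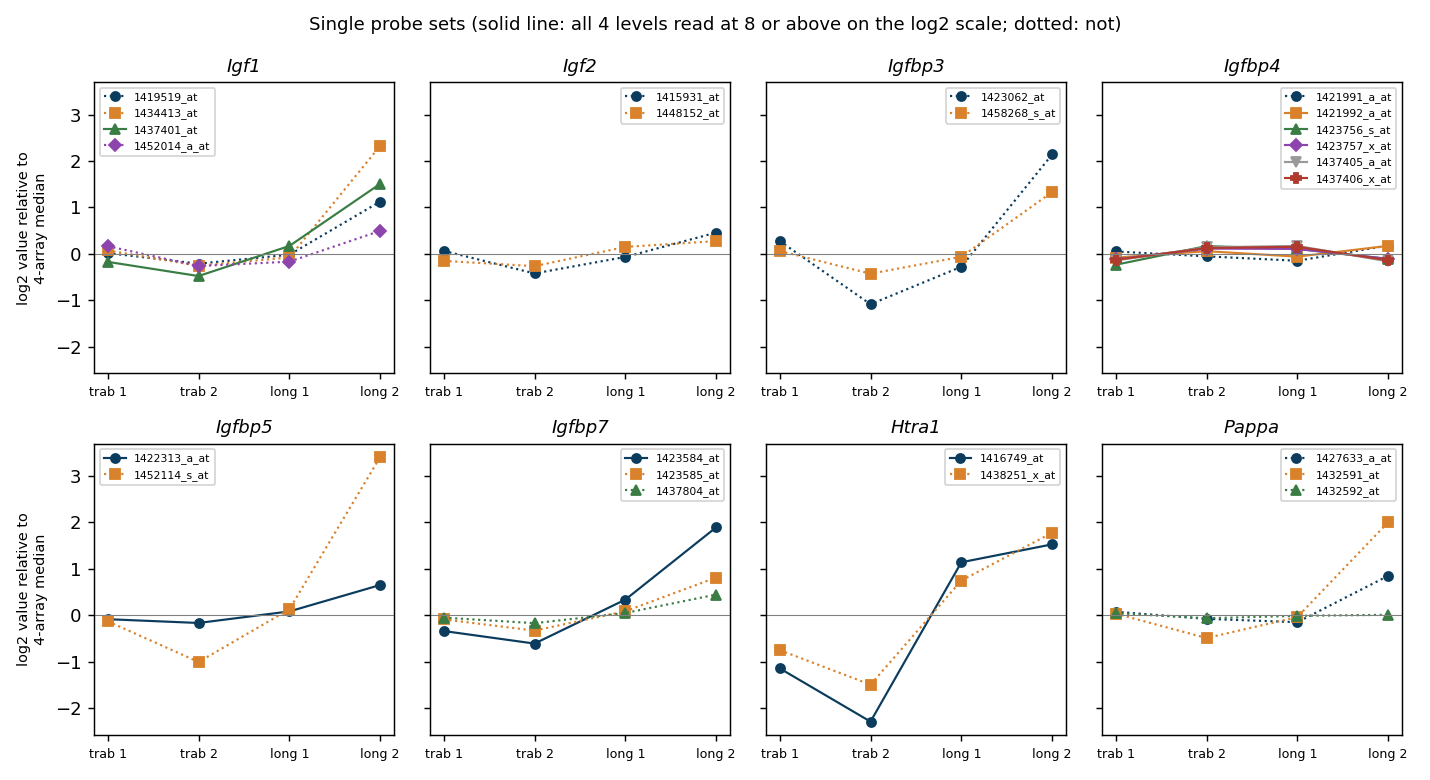
Log2 value relative to the 4-array median (vertical axis) of every probe set of the 8 genes with more than 1, on the 4 arrays (horizontal axis). Lines join the values of 1 probe set, solid where all 4 levels read at 8 or above; the probe sets of Igf1, Igfbp5 and Pappa spread apart on long bone array 2, from 0.50 to 2.33, 0.65 to 3.41 and 0.01 to 2.01.

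Promoter sequence from RefSeq (GRCm38.p6) was found for 9 of the 10 genes, all but Pappa, in 13 windows, as Igf2 and Igfbp2 have more than 1 start site in the table. The 250 bases before the start site are shown for the 3 genes with the largest differences without overlap and for the flat Igfbp4, so that the control regions of genes with unlike patterns can be read side by side. They lie at chr7:130935953-130936202 (plus strand) for Htra1, chr1:72874866-72875115 (minus strand) for Igfbp5, chr5:77408046-77408295 (minus strand) for Igfbp7 and chr11:99040994-99041243 (plus strand) for Igfbp4, each 5' to 3' towards the gene. Capitals mark matches to 1 of 5 motifs, searched on both strands.
Htra1: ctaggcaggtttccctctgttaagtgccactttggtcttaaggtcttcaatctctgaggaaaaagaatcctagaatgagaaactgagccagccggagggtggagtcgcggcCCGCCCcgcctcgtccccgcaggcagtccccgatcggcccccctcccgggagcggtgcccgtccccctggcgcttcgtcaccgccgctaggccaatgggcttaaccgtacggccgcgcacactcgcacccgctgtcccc
Igfbp5: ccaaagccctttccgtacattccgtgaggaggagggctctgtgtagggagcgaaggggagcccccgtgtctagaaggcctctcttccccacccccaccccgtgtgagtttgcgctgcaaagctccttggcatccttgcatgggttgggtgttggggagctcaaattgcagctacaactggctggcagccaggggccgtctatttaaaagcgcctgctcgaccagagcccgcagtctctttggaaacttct
Igfbp7: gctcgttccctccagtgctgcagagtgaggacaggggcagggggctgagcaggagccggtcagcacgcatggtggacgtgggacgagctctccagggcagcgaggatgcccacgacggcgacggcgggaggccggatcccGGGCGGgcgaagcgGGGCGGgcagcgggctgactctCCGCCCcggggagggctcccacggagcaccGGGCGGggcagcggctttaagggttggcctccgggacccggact
Igfbp4: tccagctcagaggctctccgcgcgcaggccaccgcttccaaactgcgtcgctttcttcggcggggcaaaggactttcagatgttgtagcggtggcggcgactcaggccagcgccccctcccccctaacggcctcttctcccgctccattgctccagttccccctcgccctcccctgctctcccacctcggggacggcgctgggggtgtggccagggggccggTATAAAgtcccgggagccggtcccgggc

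The motifs were the TATA box (TATAAA), the GC box read by Sp1 (GGGCGG), an E box (CAGCTG), the core read by RUNX factors (TGTGGT) and one read by SOX factors (ACAAAG), and no match overlapped another in the windows of these genes. Htra1 held 1 GC box and Igfbp7 held 4, and Igfbp4 had a TATA box at position -28 from the start site. The Igfbp5 window held no match to these letters. Among the 9 genes a GC box was found in Htra1, Igf2, Igfbp2 and Igfbp7, a TATA box in Igfbp4 and Igfbp6, a RUNX core in Igfbp3 alone, and a SOX core and an E box in Igf1 alone. Counted by window, 5 of the 13 windows of these genes held a GC box, 2 a TATA box and 1 each of the other motifs. Of all 32851 promoter windows in the table, 32.7% held a GC box, 12.4% a TATA box, 13% the E box, 14% the RUNX core and 16.5% the SOX core. A match is a description of the sequence and not a binding site.

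Igfbp2 and Igfbp5 are direct neighbours among protein-coding genes on chromosome 1, with differences of -0.02 and -1.41. Igfbp3 lies beside Igfbp1 on chromosome 11, and Igfbp1 differed by 0.02 with overlap. Pappa lies beside Tnc on chromosome 4, the gene of the matrix glycoprotein tenascin C, which differed by -2.43. The difference within any of these pairs was not tested.

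The genes most like Htra1 over the 4 arrays, by Euclidean distance of the log2 values among all other genes, were the cytokine gene Il6 (0.32), Tnc (0.42) and the collagen gene Col6a1 (0.48). Those nearest to Igfbp5 were the glycosyltransferase gene B3galnt1 (0.19), the hypoxia factor gene Epas1 (0.21) and the basement membrane collagen gene Col4a1 (0.23). Those nearest to Igfbp7 were Kdelr3, a receptor for proteins of the endoplasmic reticulum (0.03), the ligand gene Wnt4 (0.04) and the protease gene Adamts9 (0.09). With 4 arrays in 2 areas such likeness rests on few points and is a description. Among the members themselves, the closest pair was Igf2 and Igfbp6 (0.13) and the most distant Igfbp4 and Htra1 (2.87).

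Marker lists, of the sorted class and of other cells, moved with both patterns. Chondrocyte genes separated the areas as Htra1 did: 14 of 15 did not overlap and were lower in the trabecular area, where 21.4% of all genes were. Their mean value was -1.18 and -1.07 on the trabecular arrays and 1.37 and 1.06 on the long bone arrays. The cartilage matrix genes Comp and Col11a1 had the largest differences, -5.18 and -4.07. Osteoblast genes did so too, with all 9 measured of 12 lower and not overlapping and mean values of -0.76 and -0.48 against 0.58 and 0.80. In that list Col1a2, a chain of type I collagen, differed by -2.46 and Ibsp, bone sialoprotein, by -2.00. Of the 9 genes 6 were highest on long bone array 2, as Htra1 was. Ibsp, Dmp1 and Omd were highest on long bone array 1, at 1.14, 1.11 and 1.38. Phex, Alpl and Pth1r stood at 1.33, 0.78 and 1.17 on long bone array 2. They differed by -0.93, -0.66 and -1.09, and by -0.32, -0.30 and -0.65 without that array. The list's median was -1.09, and -1.42 without it. Fibroblast and tendon genes had means of -0.36 and -0.54 against 0.41 and 0.82, with 9 of 10 lower and 5 of these not overlapping, beside the same 21.4%. The proteoglycan genes Fmod and Dcn differed by -3.96 and -2.19, while the list's median moved from -0.65 to -0.16 without long bone array 2, as Aspn, Dpt and Pdgfra were highest there, at 1.01, 1.03 and 1.45. The tendon genes Tnmd and Scx differed by -0.27 and -0.06 with overlap, and Mkx by 0.04 without overlap. The part of these cells in the Htra1 difference was not tested.

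Genes of reticular stroma, the marrow cells that make much Cxcl12, followed long bone array 2 as Igf1, Igfbp3 and Igfbp5 did. Their mean was 1.52 there and -0.50 to 0.09 on the other arrays. On it 9 of 12 were at least 2-fold above every other array, where 1.11% of all genes were. Adipoq, the adiponectin gene, stood at 4.49 and Cxcl12 at 1.89 on that array. In all, 11 of the 12 were lower in the trabecular area, 2 of them without overlap, beside 21.4% of all genes. The median difference was -0.99 (-0.15 without that array). The remaining gene, Hp, differed by 0.44 without overlap and was lowest on that array, at -0.63. Smooth muscle and pericyte genes had a mean of 0.68 there and of -0.22 to -0.01 elsewhere, and their median difference moved from -0.55 to -0.14 without that array. The largest differences of that list were -0.84 for Cspg4, which was higher on long bone array 1 (0.57) than on array 2 (0.33), and -0.81 for Rgs5 (-0.41 without array 2). The erythroid and B cell lists also had their highest means on that array, 0.52 and 0.79, but not in every gene. Of 6 erythroid genes 4 were highest there, among them Alas2 and Slc4a1. These differed by -0.65 and -0.44 with overlap, and by 0.44 and 0.02 without that array. Hba-a1 and Tfrc differed by 0.18 and 0.12 without overlap. Of 7 B cell genes 5 were highest there. Vpreb1 differed by -1.23 with overlap, Ebf1, which the reticular stroma list also holds, by -0.96 and Cd79b by 0.29. Without that array the same genes were at 0.29, -0.14 and 0.81. The part of these cells in the values of Igf1, Igfbp3, Igfbp5, Igfbp7 and Pappa was not tested. Nor was that of the Gapdh control, which set the same array apart where the Actb control did not.

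Endothelial genes, 6 of 10 lower, had means of -0.06 to 0.21 on the 4 arrays, the highest on long bone array 2. Their median difference was -0.05, and 0.05 without that array. Vwf differed by -0.76 with overlap, stood at 1.62 on that array and was at 0.11 without it. Tie1 differed by 0.56 without overlap. Macrophage genes, 7 of 11 lower, had means of -0.27 to 0.30, the highest again on long bone array 2. Their median difference was -0.26, and 0.11 without that array. C1qb differed by -1.04 with overlap, and by -0.38 without that array, and Cd68 differed by 0.78 without overlap. Vcam1 was on this list and on that of reticular stroma. Neutrophil and myeloid genes, 4 of 13 lower, had means of -0.24 to 0.25, with Itgam at 1.68 and Mmp8 at 1.12, and the pan-blood list was lowest on long bone array 2, at -0.61, and its median difference moved from 0.62 to 0.04 without that array. In it Coro1a differed by 0.76 with overlap and by -0.39 without that array, and Fcer1g by 0.66. The values hold no level beyond the coarse reading from the spacing. By it all 5 pan-blood genes, Ptprc (CD45) among them, had a probe set read at 8 and above. The same held for 9 of 13 neutrophil and myeloid, 3 of 9 osteoblast and 2 of 15 chondrocyte genes, beside 31.1% of all probe sets. That reading ranks no gene against another, and it favours genes with more probe sets. It asks for 8 and above on all 4 arrays, so a gene low in the trabecular area can miss it however bright it is in the long bone area. The counts are of genes, whereas the share is of probe sets, so the lists cannot be compared by them. The label of the sort was not tested against its markers, and no marker can be said to be absent.

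**Figure D4:**
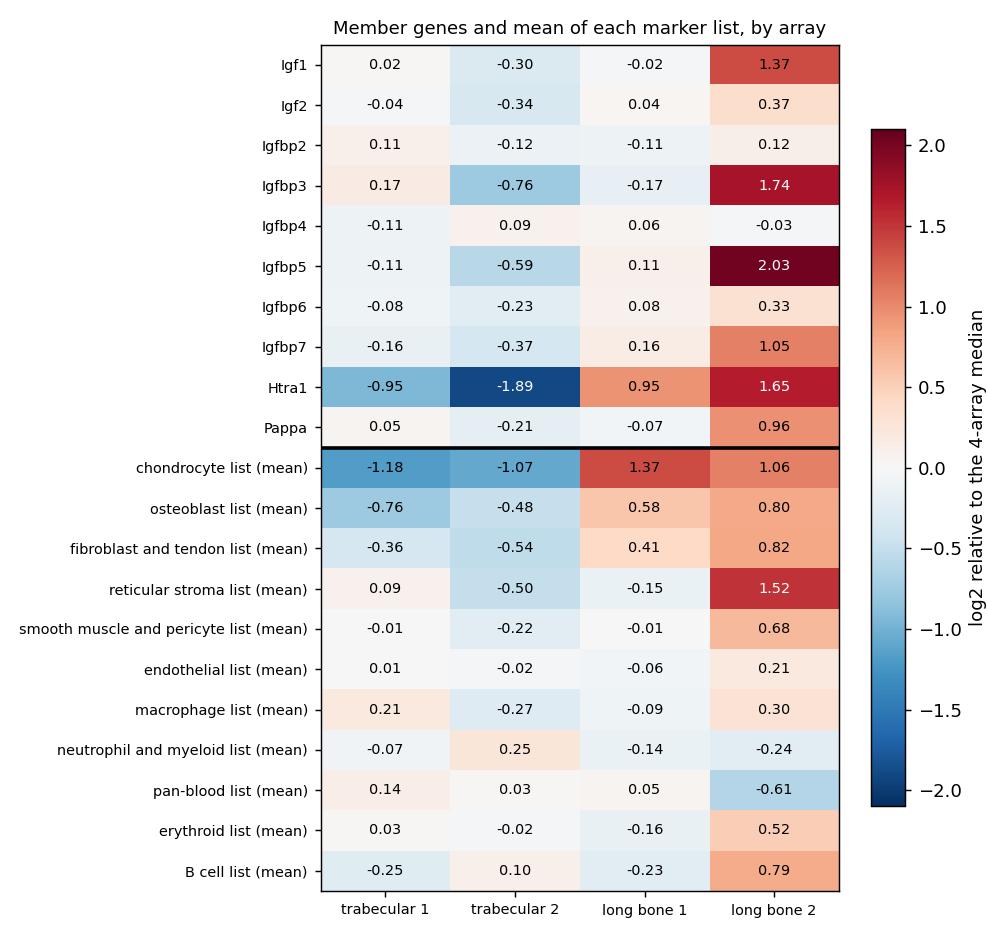
Log2 value relative to the 4-array median, by colour and number, of the 10 genes (above the line) and the mean of each marker list (below it) on the 4 arrays. The chondrocyte and osteoblast lists separate the areas as Htra1 does, and the reticular stroma list is at 1.52 on long bone array 2 and at -0.50 to 0.09 elsewhere.

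The rest of the pathway went both ways. No gene of the 6 further lists was called by limma over all genes. Among 12 receptors and adaptors 3 were lower and 3 higher in the trabecular area without overlap, where 21.4% and 29.9% of all genes were, and the median was -0.09. The receptors overlapped between the areas: Igf1r, which carries the signal of both ligands, differed by 0.21 (95% interval -0.64 to 1.05), Insr, the insulin receptor, by 0.16 and Igf2r, which clears Igf2, by -0.18. Without long bone array 2 they were at -0.21, -0.09 and -0.49. Of the docking proteins, Irs1 differed by -1.47, with values of -0.28 and -0.43 against 0.28 and 1.94, and was at -0.64 without long bone array 2. Grb2, the adaptor towards Ras, differed by 0.58, Shc1 by 0.37 and Irs4 by 0.14 in the other direction, and Insrr by -0.37 and the imprinted adaptor Grb10 by -0.33. Without long bone array 2 Grb2 was at 0.34, Shc1 at 0.18, Irs4 at 0.21 and Insrr at -0.22.

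Of the effectors of the PI3K and AKT branch 11 of 15 had a higher mean in the trabecular area, 5 of them without overlap, and the median was 0.34. Of all 18193 genes 9927 had a higher mean there and 29.9% were higher without overlap, so the count without overlap lies near the background. Without long bone array 2 the median of the 15 was -0.03. The catalytic subunit gene Pik3cb differed by 1.22 (0.49 without long bone array 2), the transcription factor gene Foxo3 by 0.61 and the regulatory subunit gene Pik3r2 by 0.57. Foxo1 and the growth inhibitor Tsc1 differed by -0.39 and -0.22, each without overlap. In the growth hormone axis, which controls Igf1 in liver, Stat5b and Jak2 differed by 0.64 and 0.50 and Socs2, a feedback inhibitor, differed by -0.94. Without long bone array 2 Jak2 was at 0.24 and Socs2 at -0.50. The list's median was 0.02, and its direction turned without trabecular array 1 (-0.16) or long bone array 1 (-0.36).

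Of the other genes that act on binding proteins, 6 of 12 proteases and inhibitors were lower in the trabecular area without overlap and 2 were higher, with a median of -0.28, beside 21.4% of all genes in the one direction and 29.9% in the other. Htra3, a close relative of Htra1, differed by -0.68 (95% interval -1.08 to -0.28, unadjusted p = 0.00845, limma adjusted p = 0.243), with values of -0.23 and -0.39 against 0.25 and 0.50. Plat, tissue plasminogen activator, differed by -0.55 and Pappa2, which cuts Igfbp5, by -0.33. The lysosomal protease gene Ctsd differed by 0.99, and the membrane protease gene Adam9 by 0.17 (0.03 without long bone array 2). Among 6 further binding proteins and carriers 2 had no overlap, Kazald1 at -0.65 and Crim1 at -0.50 (-0.17 without long bone array 2), beside 21.4% of all genes lower without overlap.

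Imprinted growth genes and the RNA-binding proteins of Igf2 transcripts had a median of -0.42, with 8 of 9 lower in the trabecular area and 5 of these without overlap, beside 21.4% of all genes. Plagl1, an imprinted zinc finger gene, differed by -0.93 (unadjusted p = 0.00959, limma adjusted p = 0.246), Ndn by -0.79 and Peg3 by -0.68. Their values were -0.27 and -0.62 against 0.27 and 0.70 for Plagl1, with both long bone arrays above both trabecular arrays. H19, the imprinted RNA gene beside Igf2, was not analysed here.

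**Figure D5:**
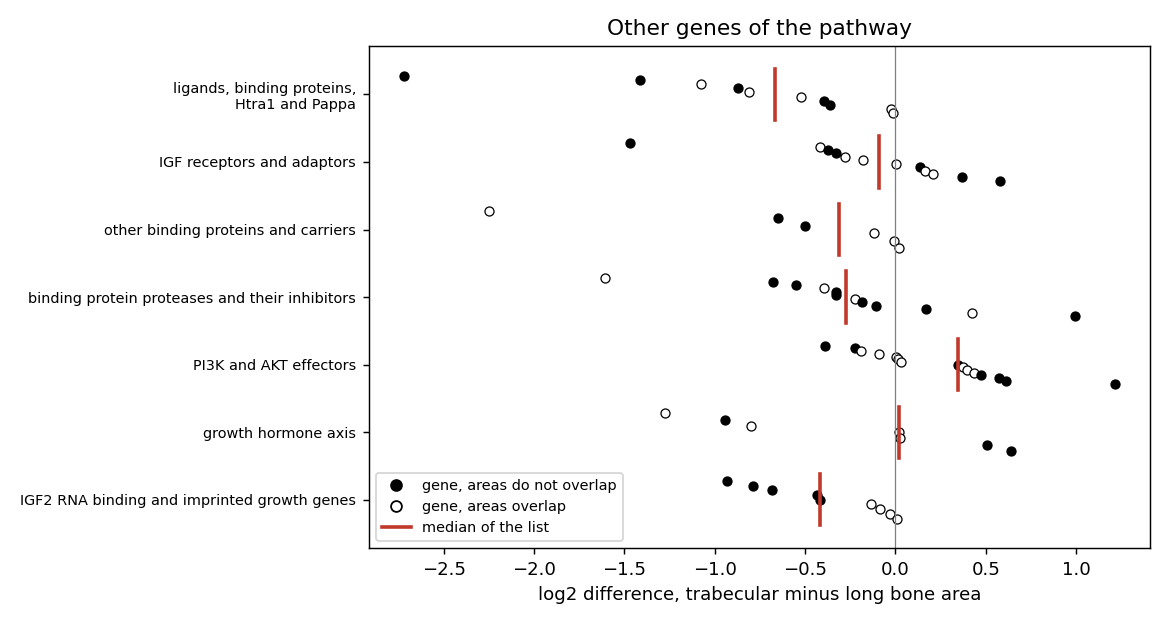
Log2 difference, trabecular minus long bone area (horizontal axis), of every measured gene in each list (rows), filled where the areas do not overlap, with the median of the list as a red line. The 10 genes have a median of -0.67, and the medians of the other lists run from -0.42 to 0.34.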

How the data were processed

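RNA of 4 sorted samples was measured on Affymetrix mouse arrays. The deposited values are log2 expression made with RMA, per the submitters' processing notes, which give no version. They were also centred per probe set by the authors, since the median over the 4 arrays is 0 for all 45101 probe sets within rounding. What software did the centring is not stated there, nor is the base of the log, taken as 2 as in RMA. A human array is named in the design text, whereas probe set names and annotation are those of a mouse array.

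After 64 controls were left out, 45037 probe sets were tested, and 34945 with 1 annotated gene were averaged into 18193 genes (9160 had no gene, 932 several). By gene ID 34741 matched RefSeq (GRCm38.p6), with 0 symbols changed. Trabecular minus long bone differences were fitted in R 4.3.3 by lmFit and eBayes of limma 3.58.1, without trend or block (2 residual and 2.5 prior degrees of freedom), with Benjamini-Hochberg adjustment and a threshold of 0.05. The method was tested on simulated data. The members and lists were chosen with earlier results of these data known. Of 189 listed genes 13 were not analysed here. The text names all members, up to 3 genes per list and direction without overlap, 2 per marker list, Igf1r, Igf2r, Insr and H19, and the 3 genes nearest to each of 3 members. Other list members named, such as Igfbp1, and the genes named for 1 array were chosen once values were known. Same-numbered arrays were not taken as pairs: their deviations correlated at -0.11 over genes. Arrays shared 65 to 107 identical values per pair. Alternatives were the trend, ordinary t statistics, the block, other normalization, centring, weights and summaries, and each array left out. The number of arrays limits the precision.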

Additional observations from a re-analysis of the deposited data

How the results depend on the processing

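The count of genes called, 0 as reported, was 40 with a trend in the prior variance, 1 with ordinary t statistics, 0 with the replicate block and 0 to 1603 with 1 array left out, the highest without long bone array 1. For probe sets it was 281 with the trend, 1 with ordinary t statistics, 0 with the replicate block and 0 with any 1 array left out. No member was called under any alternative other than the fit without long bone array 1, in which 5 were. A crossed block, added after the data were seen because same-numbered arrays deviated in opposite directions, called 0 genes and 0 probe sets. Array weights could not move a difference, as 2 arrays per area have equal residuals.

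The count of members at least 2-fold lower without overlap, 2 as reported, was 1 to 6 with 1 array left out (1 without long bone array 2, 6 without long bone array 1), 3 at 1.5-fold and 1 at 4-fold. The median over the members, -0.67 as reported, ran from -1.18 to -0.18 with 1 array left out and was -1.16 over bright probe sets alone, which cover 5 members. The differences of Htra1, Igf1, Igf2, Igfbp3, Igfbp5, Igfbp6, Igfbp7 and Pappa kept their sign under all alternatives run. Igfbp2, with its only probe set 1454159_a_at, turned to 0.013 after quantile normalization and ran from -0.13 to 0.10 with 1 array left out, and Igfbp4 ran from -0.12 to 0.078. Of single Igfbp4 probe sets, 1421991_a_at turned to 0.028 after quantile normalization and 1423757_x_at to 0.00301 with centred arrays; the cause was not tested. With 1 array left out, the Igfbp4 probe sets ran from -0.18 to 0.148 (1421991_a_at), -0.184 to 0.048 (1421992_a_at), -0.234 to 0.168 (1423756_s_at), -0.118 to 0.114 (1423757_x_at), -0.172 to 0.161 (1437405_a_at) and -0.153 to 0.136 (1437406_x_at). In the same fits 1452014_a_at of Igf1 ran from -0.54 to 0.12, and 1427633_a_at and 1432592_at of Pappa from -0.85 to 0.148 and from -0.063 to 0.047.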
